A study of Mus musculus with 6 samples.

Results

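The skeletal muscle ubiquitin ligases that are linked to atrophy were described here in the hindlimb gastrocnemius (GAS) muscle of mice with and without the potassium channel subunit Kvβ2. The genes were chosen by symbol, as *Trim63*, *Trim54*, *Trim55*, *Fbxo32*, *Fbxo30*, *Fbxo40*, *Fbxo21*, *Traf6*, *Nedd4* and *Asb2*, and all 10 were found among the 37979 entries of the deposited expression table. Each was above 0 FPKM (fragments per kilobase, scaled to the number of fragments mapped in each library) in all 6 libraries and passed the filter on low values, with 12334 entries tested in all. The libraries came from 3 wildtype (WT) and 3 Kvβ2-/- knockout (KO) male mice, 20 weeks of age and untreated, bred from hemizygous Kvβ2+/- parents, with 1 library of GAS muscle per mouse. The knockout was of the whole animal, so Kvβ2 was also missing outside muscle fibers. Replicates are numbered 1, 7 and 8 within a genotype, and values by library are given in that order. In whole muscle, fewer cells of a type cannot be told apart from less RNA per cell. The question was whether the RNA of these ligases differed between the genotypes.

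A ubiquitin ligase (E3) brings a ubiquitin-loaded conjugating enzyme (E2) to a substrate protein, and chains of ubiquitin mark many substrates for the proteasome. The MuRF proteins are RING-finger ligases of the sarcomere. MuRF1 (*Trim63*) and the F-box protein atrogin-1 (*Fbxo32*) are the classic markers of muscle wasting, and their genes are targets of FOXO transcription factors and of the glucocorticoid receptor. F-box proteins bind substrates for cullin 1 ligases, and ASB proteins with a SOCS box do so for cullin 5 ligases. TRAF6 and NEDD4 act without a cullin, as a RING ligase of innate immune signaling and a HECT ligase of membrane proteins.

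The depth, estimated from the steps of low FPKM values, was 13790000 to 18110000 fragments in the KO and 19170000 to 20140000 fragments in the WT libraries. The targeted gene *Kcnab2* was at 0.23, 0.10 and 0.11 FPKM in the WT replicates, at 0.0151 FPKM in KO replicate 7 and listed at 0 in KO replicates 1 and 8, levels that rest on few fragments. Of 16 markers of skeletal muscle fibers, 13 were above 0, and *Myh4*, *Atp2a1* and *Tnnt3* were listed at 0 in all 6 libraries, so a listed 0 need not mean absent RNA. WT replicate 8 stood apart, since its 9 slow fiber markers summed to 47.7 FPKM against 370 to 2011 FPKM in the other 5 libraries. The difference between the genotypes also moved with base composition, since the log2 fold change rose with the GC content of a gene's transcripts (Spearman's rho = 0.70 across tested genes, genes not being independent replicates). Values after a correction of each library for this trend are therefore given beside the members' own.

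Promoter windows of RefSeq (GRCm38.p6, from 250 bases before to 50 bases after an annotated start) were given for 8 of the 10 genes, with 11 windows in all. The windows of *Trim63* and *Trim54* and the first of 2 windows of *Asb2* are shown here because *Trim63* is the classic FOXO and glucocorticoid target and the other 2 genes had the largest KO minus WT differences among the 10. They are chr4:134314870-134315169 on the plus strand, chr5:31116362-31116661 on the plus strand and chr12:103355952-103356251 on the minus strand, written 5′ to 3′. Capitals mark the FOXO core (TGTTTAC), the glucocorticoid element (GAACA and TGTTC with 3 bases between them), the E-box bound by myogenic factors (CAGCTG) and the CArG box bound by serum response factor (CC, 6 bases of A or T, GG). All 4 were searched on both strands, and no matches in these 3 windows overlapped.
Trim63: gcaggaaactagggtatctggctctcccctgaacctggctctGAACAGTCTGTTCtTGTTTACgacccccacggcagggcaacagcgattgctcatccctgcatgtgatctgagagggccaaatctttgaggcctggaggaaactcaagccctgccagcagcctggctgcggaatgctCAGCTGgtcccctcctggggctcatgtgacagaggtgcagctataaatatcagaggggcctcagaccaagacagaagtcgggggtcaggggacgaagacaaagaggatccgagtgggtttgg
Trim54: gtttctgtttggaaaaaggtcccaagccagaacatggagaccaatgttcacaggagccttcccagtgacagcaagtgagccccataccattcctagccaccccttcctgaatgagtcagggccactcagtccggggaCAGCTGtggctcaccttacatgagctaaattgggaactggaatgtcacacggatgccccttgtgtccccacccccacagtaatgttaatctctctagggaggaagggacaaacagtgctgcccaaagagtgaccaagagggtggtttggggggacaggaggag
Asb2: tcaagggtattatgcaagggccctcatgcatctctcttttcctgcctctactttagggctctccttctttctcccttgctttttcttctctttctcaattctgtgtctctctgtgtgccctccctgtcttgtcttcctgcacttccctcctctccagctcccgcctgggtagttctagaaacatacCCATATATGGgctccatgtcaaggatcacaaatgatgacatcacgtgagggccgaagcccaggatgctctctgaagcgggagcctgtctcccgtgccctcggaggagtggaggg
Counted from the annotated start, the *Trim63* window held a glucocorticoid element at -208, the FOXO core next to it at -194 and an E-box at -72. The *Trim54* window held an E-box at -113 and the first *Asb2* window a CArG box at -64. For *Trim54* this counts from the RefSeq start, since the window ends at 31116661, before the GENCODE gene start at 31116712. The second *Asb2* window, chr12:103338341-103338640 on the minus strand and not shown, held an E-box at 21. Among all 32851 windows of the same length, 3.65% held the FOXO core, 0.0578% (19 windows) the glucocorticoid element, 16.3% an E-box and 1.63% a CArG box. Of the 11 windows of the 8 genes, 1 held the FOXO core, 1 the glucocorticoid element, 6 an E-box (in 5 genes) and 1 a CArG box. *Fbxo32* and *Trim55* had no window, so their promoters were not searched.

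In the comparison of the KO with the WT mice, 0 of the 10 ligase genes were called, that is, had an adjusted p under 0.05 in limma, a linear model on log2(FPKM + 0.1), against 0.324% of all tested genes. At an unadjusted p under 0.05, *Trim54* was higher and *Traf6* lower in the KO mice, which made 1 of 10 genes in each direction, with a background of 15.3% of tested genes higher and 10.9% lower. In *Trim54* every KO library lay above every WT library, as it did in 18.3% of tested genes. In *Traf6* and *Nedd4* every KO library lay below, as in 16.2% of tested genes, and in the other 7 genes the genotypes overlapped. Of the fitted fold changes, 6 were above and 4 below 0, with a median log2 fold change of 0.15 against 0.010 over all tested genes. These shares were near the background.

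**Figure D1:**
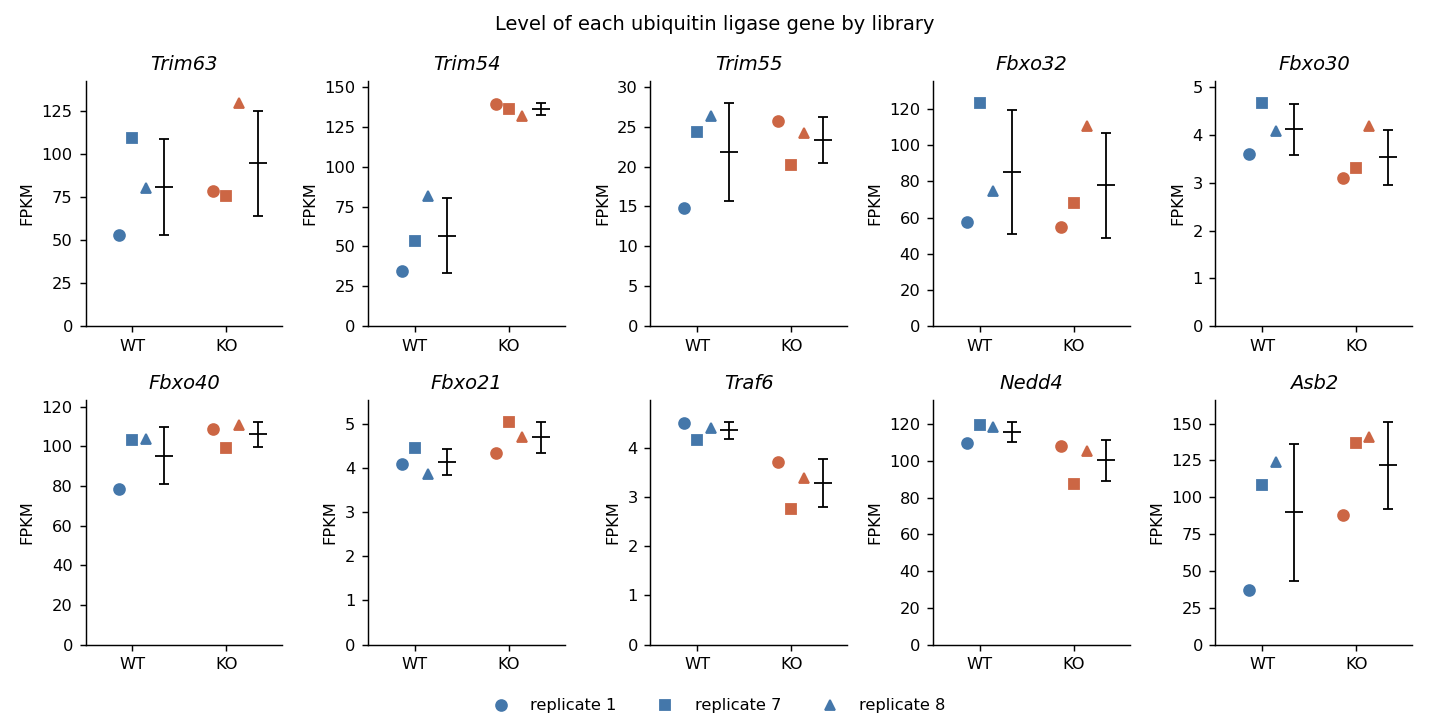
FPKM of each of the 10 ubiquitin ligase genes (vertical axes, linear, each from 0) in the 3 WT and 3 KO libraries, with 1 marker shape per replicate number and the mean with SD beside each group. The KO libraries of *Trim54* sit between 132 and 139.6 FPKM, above the WT libraries at 34.7 to 81.8 FPKM, and those of *Traf6* and *Nedd4* sit below the WT libraries.

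*Trim54* encodes MuRF3, which binds microtubules and the Z-disc region of the sarcomere. The gene (ENSMUSG00000062077) lies on chromosome 5, 31116712 to 31137630 of GRCm38, on the plus strand. It had 34.7, 53.6 and 81.8 FPKM in the WT replicates and 139.6, 136.6 and 132.1 FPKM in the KO replicates. The 3 KO libraries were close together, with the highest 1.06 times the lowest, and the WT libraries were spread 2.36-fold. The mean of the 3 WT mice was 56.7 ± 23.7 FPKM (SD) and that of the 3 KO mice 136.1 ± 3.76 FPKM (SD). The log2 fold change was 1.35 (standard error 0.28, 95% confidence interval 0.70 to 1.99), and its adjusted p of 0.0708 in limma did not pass the threshold. With each library left out in turn, the adjusted p ran from 0.0450 to 0.235, and it was under 0.05 only without WT replicate 8. That is the WT library with the highest level, so leaving it out widens the difference. With limma's array weights, a setting that called 3147 genes, the adjusted p was 0.00669, and with the replicate block 0.120. After the correction for GC content the log2 fold change was 0.72 (standard error 0.22, adjusted p = 0.344), and with a library also left out it was 0.50 to 0.96, with adjusted p of 0.15 to 0.671. Genes of *Trim54*'s GC content, 59.99%, were as a group higher in the KO mice, and the 917 tested genes of 58% to 62% GC had a median log2 fold change of 0.60, with quartiles at 0.35 and 0.85.

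*Trim63*, the gene of MuRF1, which marks thick filament proteins for degradation, overlapped between the genotypes. The gene (ENSMUSG00000028834, chromosome 4, 134315120 to 134329629, plus strand) had 53.1, 109 and 80.0 FPKM in the WT replicates and 78.7, 75.4 and 129 FPKM in the KO replicates. Each genotype had 1 library above 100 FPKM, and the log2 fold change was 0.24 (standard error 0.30, 95% confidence interval -0.46 to 0.94, adjusted p = 0.633 in limma). The sign of this difference rested on single libraries, since it was -0.029 without WT replicate 1 and -0.0071 without KO replicate 8. With the GC correction it was 0.16.

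*Trim55*, the gene of MuRF2, a titin-binding ligase of the M-band region, was the lowest of the MuRF genes. The gene (ENSMUSG00000060913, chromosome 3, 19644474 to 19692421, plus strand) was at 14.9, 24.3 and 26.3 FPKM in the WT replicates and at 25.7, 20.2 and 24.2 FPKM in the KO replicates. Apart from the low WT replicate 1, the libraries lay between 20.2 and 26.3 FPKM. The log2 fold change was 0.13 (standard error 0.22, adjusted p = 0.730 in limma), and it was -0.12 without WT replicate 1 and 0.20 with the GC correction.

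The MuRF proteins can pair with each other, so their RNA was also compared within libraries. Summed over the 3 MuRF genes, WT replicates 1, 7 and 8 held 103, 187 and 188 FPKM and KO replicates 1, 7 and 8 held 244, 232 and 286 FPKM. *Trim54* made up 33.8%, 28.6% and 43.5% of this sum in the WT and 57.2%, 58.8% and 46.2% in the KO replicates. The groups did not overlap in either quantity, although KO replicate 8 and WT replicate 8 differed little in the share. Among single tested genes, 18.3% had every KO library above every WT library. Neither quantity was corrected for GC content, and with that correction the log2 fold change of *Trim54* was 0.72 instead of 1.35.

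**Figure D2:**
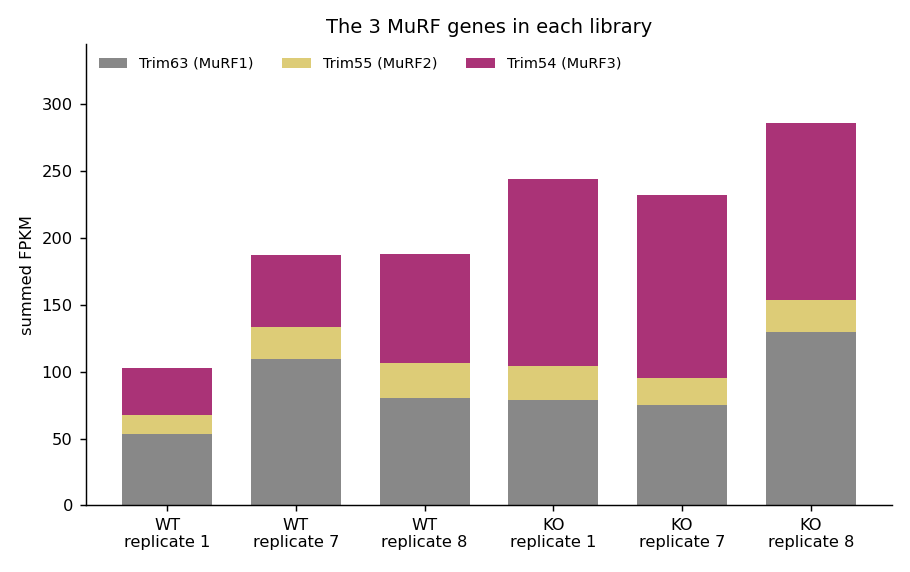
Summed FPKM of *Trim63*, *Trim55* and *Trim54* (vertical axis, linear from 0) in each library, with 1 stacked bar per library. The *Trim54* segment is taller in each KO bar, at 132 to 139.6 FPKM, than in the WT bars, at 34.7 to 81.8 FPKM, and the other segments overlap between the genotypes.

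The ratio of *Trim54* to *Trim63* was 0.653, 0.491 and 1.02 in the WT and 1.77, 1.81 and 1.02 in the KO replicates. The replicates numbered 8 of the 2 genotypes had almost the same ratio, and the groups overlapped there. On the log2 scale the KO minus WT difference was 1.11 (exact permutation test, two-sided, p = 0.2, adjusted p over the 3 ratios tested 0.2). The ratio of *Trim54* to *Trim55* was 2.33, 2.20 and 3.11 in the WT and 5.43, 6.77 and 5.46 in the KO replicates, with no overlap. Its log2 difference was 1.22 (exact permutation test, two-sided, p = 0.1, which is the smallest p that 3 against 3 can give, adjusted p = 0.15). With the GC correction these differences were 0.56 and 0.52. The ratio of *Fbxo32* to *Trim63* was 1.08, 1.13 and 0.936 in the WT and 0.695, 0.903 and 0.852 in the KO replicates. Every KO ratio lay below every WT ratio, with a log2 difference of -0.36 (exact permutation test, two-sided, p = 0.1, adjusted p = 0.15), and of -0.11 with the GC correction. An exact permutation test of 3 against 3 cannot reach 0.05, so these p-values do not show whether the ratios differed.

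Exons of another gene overlap *Trim54* on the opposite strand. *Gm15469*, an antisense gene on the minus strand that was picked after its values were seen, covers 3 of the 9 exons of *Trim54* wholly, which is 382 of its 1436 exonic bases or 26.6%. Its exons are those of ENSMUSG00000107265 in GENCODE vM21, while the table lists this symbol under ENSMUSG00000085493, so the levels and the exons were joined by symbol and may not describe the same gene model. The table's entry had 2.79, 3.31 and 3.66 FPKM in the WT replicates and 6.87, 9.34 and 6.78 FPKM in the KO replicates. Each KO library was above each WT library, as in 18.3% of tested genes. The gene passed the threshold in limma, with an adjusted p of 0.0493 at a log2 fold change of 1.20 ± 0.17 (standard error). That call was close to the threshold, and 1 gene in all was called when genes at 0 in any library were left out. A GC-corrected value is not given here for *Gm15469*. Its FPKM was 4.48% to 8.06% of that of *Trim54* in the 6 libraries. The library kit marks the strand, but whether strand was used in the quantification is not given in the sources used here, so reads of *Trim54* and *Gm15469* may not have been told apart. *Gm15943* overlaps *Fbxo32* on the opposite strand in the same way, over 2.67% of its exonic bases, with 0.274 to 0.998 FPKM in the 6 libraries.

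**Figure D3:**
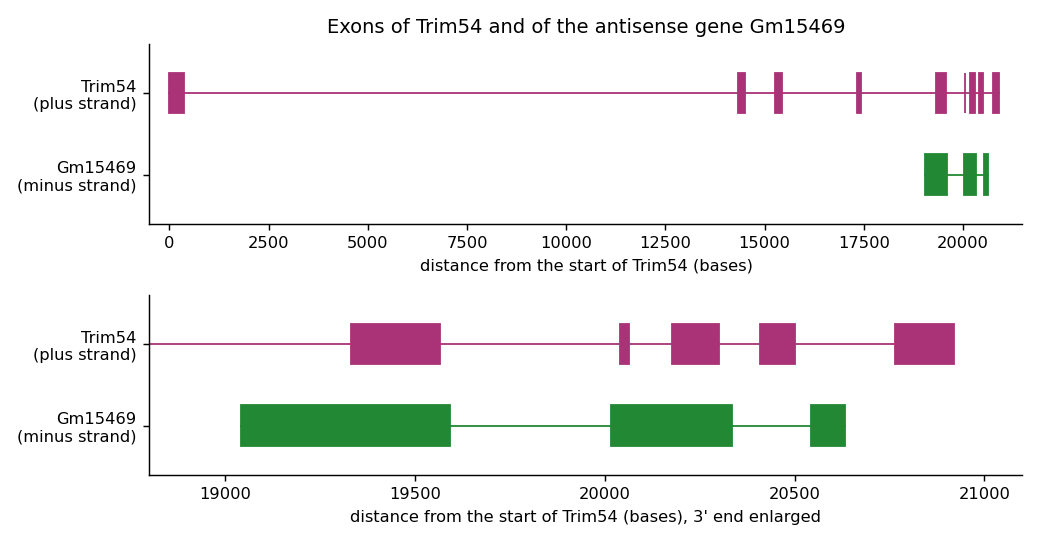
Exons (boxes) of *Trim54* and of the antisense gene *Gm15469* in GENCODE vM21, against the distance from the start of *Trim54* in bases, with the 3′ end enlarged in the lower panel. *Gm15469* lies over 3 of the 9 *Trim54* exons, near the 3′ end of the gene.

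Levels of muscle fiber markers were also compared. The sum of the 16 fiber markers, 3 of them listed at 0 in every library, was 30388, 39616 and 43637 FPKM in WT replicates 1, 7 and 8. In the KO libraries it was 46989 to 51131 FPKM, with no overlap, as in 18.3% of tested genes, and it was not corrected for GC content. Of the 13 tested, 4 were higher at an unadjusted p under 0.05 (*Des*, *Ckm*, *Acta1* and *Myh2*) and 0 were lower, beside 15.3% and 10.9% of all tested genes. The median log2 fold change was 0.81. After the GC correction it was 0.43, and 2 genes (*Des* and *Myh2*) were higher at that p. The list includes the slow fiber genes *Myh7*, *Tnnt1*, *Tnni1* and *Atp2a2*. The slow fiber markers overlapped between the genotypes, and 0 of 9 had an unadjusted p under 0.05, but WT replicate 8 nearly lacked them, with *Myh7* at 0.0513 FPKM. The sums of the 11 fast fiber markers were 55855 to 75849 FPKM (WT) and 55205 to 76846 FPKM (KO), with 0 of 8 tested past an unadjusted p of 0.05. Of 6 adipocyte markers, 4 were higher (*Retn*, *Adipoq*, *Plin1* and *Cfd*) and 0 lower at that p, as also after the GC correction. Their median log2 fold change was 1.83, and 1.63 after the correction. The sum of the 6 was 234 to 440 FPKM in WT and 299.99 to 598 FPKM in KO muscle, highest in KO replicate 7. Most of that sum was *Fabp4*, which overlapped between the genotypes, at 217 to 409 FPKM in WT and 258 to 450 FPKM in KO muscle. Among 8 tested denervation markers, *Ncam1*, an adhesion molecule of denervated fibers, was called (log2 fold change 1.41, standard error 0.17, adjusted p = 0.030 in limma), *Myh8* was higher and *Gadd45a* lower at an unadjusted p under 0.05. The list was split, with 4 of the 8 higher and 4 lower in the fit. Its median log2 fold change was 0.046, and -0.058 after the GC correction. The sums of the 12 denervation markers overlapped, at 33.7 to 36.8 FPKM in WT and 32.5 to 36.9 FPKM in KO muscle. Of the markers of Schwann cells, endothelium, leukocytes, fibroblasts and erythrocytes, *Kdr* was lower and *Col1a1*, *Hba-a1* and *Hba-a2* higher at that p, and 0 were called. The part of these markers in the *Trim54* difference was not tested.

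Atrogin-1, the gene product of *Fbxo32*, is an F-box protein that targets factors of muscle growth and translation. The gene (ENSMUSG00000022358, chromosome 15, 58175879 to 58214932, minus strand) had 57.2, 123 and 74.8 FPKM in the WT replicates and 54.7, 68.1 and 110.4 FPKM in the KO replicates. The libraries of each genotype spanned about the same range, and the log2 fold change was -0.12 (standard error 0.33, 95% confidence interval -0.90 to 0.66, adjusted p = 0.846 in limma). It was 0.18 without WT replicate 7, 0.10 without KO replicate 1 and 0.053 with the GC correction, so it had no stable sign. Within a library it went with *Trim63*, since WT replicate 7 and KO replicate 8 were the highest of their genotype in both genes.

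*Fbxo40*, a muscle F-box gene whose product targets the insulin receptor substrate IRS1, was among the most abundant of the 10 genes. The gene (ENSMUSG00000047746, chromosome 16, 36963460 to 36990467, minus strand) had 78.8, 103 and 104 FPKM in the WT replicates and 108.8, 99.1 and 110.8 FPKM in the KO replicates. The genotypes overlapped, with a log2 fold change (± standard error) of 0.16 ± 0.14 (adjusted p = 0.461 in limma). Without the low WT replicate 1 it was 0.033, and with the GC correction 0.12.

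The other F-box genes were low. *Fbxo30* (MUSA1, a ligase induced in denervated muscle; ENSMUSG00000047648, chromosome 10, 11281330 to 11298052, plus strand) had 3.60, 4.66 and 4.09 FPKM in the WT replicates and 3.09, 3.31 and 4.19 FPKM in the KO replicates. Its log2 fold change was -0.22 (standard error 0.16, adjusted p = 0.420 in limma) and 0.14 with the GC correction, at 40.3% GC. *Fbxo21* (SMART, another F-box gene of the FOXO programme; ENSMUSG00000032898, chromosome 5, 117976730 to 118010201, plus strand) had 4.09, 4.46 and 3.87 FPKM in the WT replicates and 4.35, 5.05 and 4.69 FPKM in the KO replicates. Its log2 fold change was 0.18 (standard error 0.12, adjusted p = 0.385 in limma) and -0.043 with the GC correction. Neither gene separated the genotypes.

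*Traf6* encodes a RING ligase that builds lysine-linked signaling chains downstream of interleukin-1 and Toll-like receptors. The gene (ENSMUSG00000027164, chromosome 2, 101678429 to 101701669, plus strand) had 4.50, 4.16 and 4.41 FPKM in the WT replicates and 3.72, 2.76 and 3.39 FPKM in the KO replicates. All KO libraries lay below all WT libraries, and the means were 4.36 ± 0.174 and 3.29 ± 0.488 FPKM (SD, n = 3 each). The log2 fold change was -0.40 (standard error 0.14, adjusted p = 0.144 in limma), and it was -0.28 (adjusted p = 0.504) with the GC correction. At 46.5% GC the gene lay in a range where tested genes were mostly lower in the KO mice, and the 2557 genes of 44% to 48% GC had a median log2 fold change of -0.17, with quartiles at -0.29 and -0.018.

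*Nedd4*, the gene of the HECT ligase NEDD4, was the most abundant of the 10 in WT muscle. The gene (ENSMUSG00000032216, chromosome 9, 72662346 to 72749852, plus strand) had 109.6, 119.6 and 118 FPKM in the WT replicates and 108.0, 87.3 and 105.5 FPKM in the KO replicates. The lowest WT and the highest KO library were close, although the groups did not overlap. The log2 fold change was -0.21 (standard error 0.12, adjusted p = 0.280 in limma), -0.12 without KO replicate 7 and 0.028 with the GC correction.

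*Asb2*, whose product is the substrate receptor of a cullin 5 ligase that degrades filamins, varied most of the 10 genes between the WT mice, by 3.35-fold. The gene (ENSMUSG00000021200, chromosome 12, 103321142 to 103356001, minus strand) had 36.9, 108.6 and 124 FPKM in the WT replicates and 87.7, 136.6 and 140.7 FPKM in the KO replicates. WT replicate 1 was far below the rest, and the replicate numbered 1 was also the lowest of the KO libraries. The log2 fold change was 0.59 (standard error 0.44, 95% confidence interval -0.45 to 1.63, adjusted p = 0.426 in limma), 0.038 without WT replicate 1 and 0.020 with the GC correction. WT replicate 1 was the lowest WT library in 8 of the 10 ligase genes, and the lowest KO library was KO replicate 7 in 5 genes, KO replicate 1 in 4 and KO replicate 8 in 1.

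**Figure D4:**
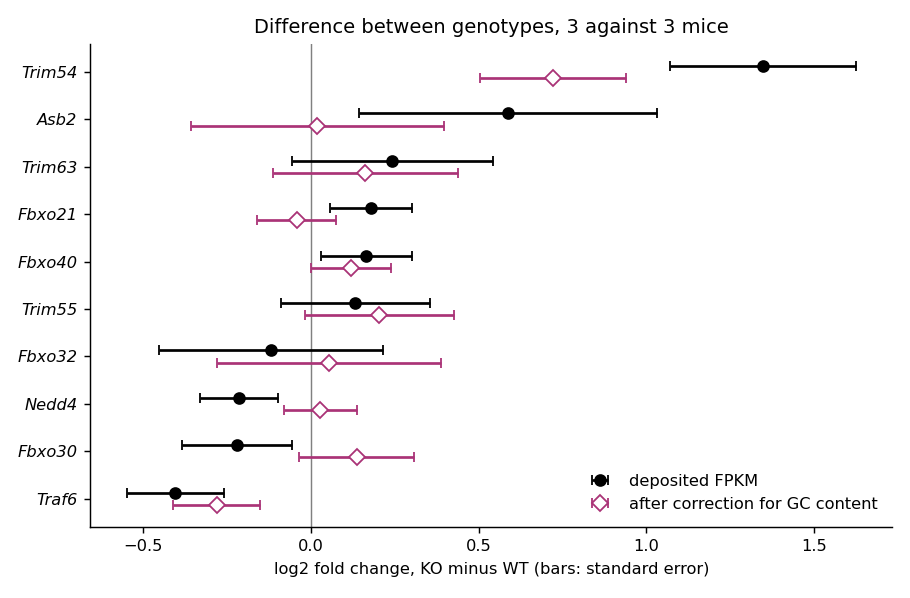
Log2 fold change of KO minus WT (horizontal axis) with its standard error for each of the 10 genes, from the deposited FPKM (filled circles) and after the correction for GC content (open diamonds), 3 against 3 mice. *Trim54* lies farthest from 0 in both, at 1.35 and 0.72, and *Fbxo32*, *Fbxo30*, *Fbxo21* and *Nedd4* change sign.

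After the correction for GC content, 1 of the 10 genes (*Trim54*) was higher at an unadjusted p under 0.05 and 0 were lower, against 5.37% and 5.43% of the 11985 tested genes of known GC content. The median log2 fold change of the 10 was then 0.087, beside -0.0019 over all these genes, and 4 of the 10 changed sign. Since the correction subtracts each library's fit on GC content, little trend was left by construction (Spearman's rho = -0.022 across genes). Whether it also removed true differences between the genotypes that follow GC content was not tested.

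**Figure D5:**
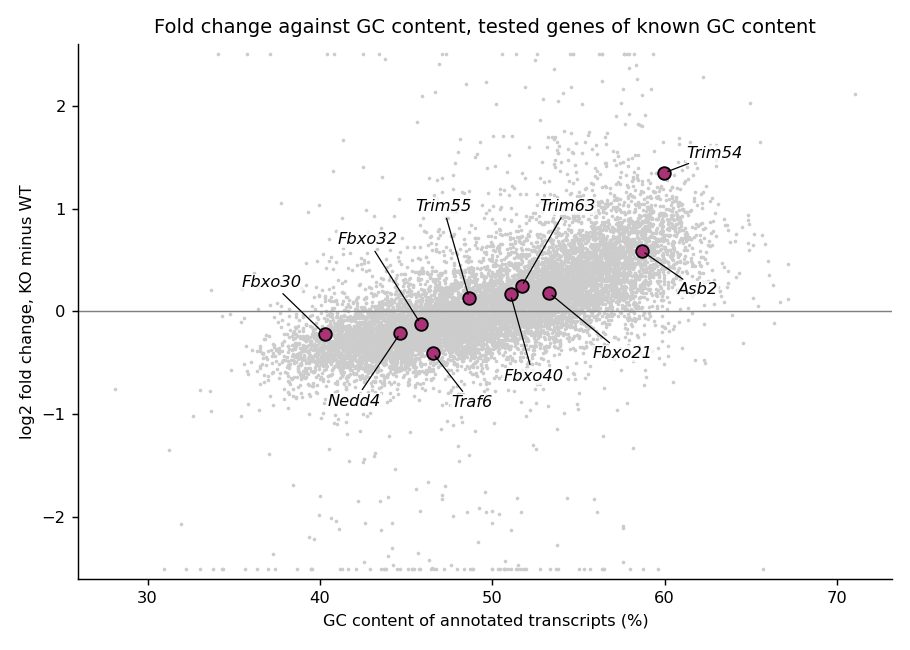
Log2 fold change of KO minus WT (vertical axis) against the GC content of annotated transcripts in percent (horizontal axis) for the 11985 tested genes of known GC content (grey), with the 10 ligase genes in purple and values beyond the axis drawn at its edge. The cloud rises from left to right, and *Trim54*, at 59.99% GC, lies above the middle of the genes of like GC content.

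Ordered by the median FPKM, which is a level per length, the genes of WT muscle ran from *Nedd4* (118 FPKM) through *Asb2* (108.6), *Fbxo40* (103), *Trim63* (80.0), *Fbxo32* (74.8), *Trim54* (53.6), *Trim55* (24.3), *Traf6* (4.41) and *Fbxo30* (4.09) to *Fbxo21* (4.09). Neighbors overlapped in range except *Trim54* with *Trim55* and *Trim55* with *Traf6*. In KO muscle *Asb2* (136.6 FPKM) and *Trim54* (136.6) led, before *Fbxo40* (108.8), *Nedd4* (105.5), *Trim63* (78.7), *Fbxo32* (68.1), *Trim55* (24.2), *Fbxo21* (4.69), *Traf6* (3.39) and *Fbxo30* (3.31). There the ranges of neighbors were apart between *Trim54* and *Fbxo40*, *Fbxo32* and *Trim55*, *Trim55* and *Fbxo21*, and *Fbxo21* and *Traf6*. *Trim54* thus stood in the sixth place in WT and in the second place in KO muscle, in FPKM not corrected for GC content. *Trim54* and *Asb2* had GC contents of 59.99% and 58.7%, and after that correction their log2 fold changes were 0.72 and 0.020. *Traf6*, *Fbxo30* and *Fbxo21* reached at most 5.05 FPKM in any library, and the other 7 genes at 14.9 FPKM or more. Among the tested genes, the mean level of these 3 lay at percentiles 43.1 to 47.0 and that of the 7 at percentiles 82.6 to 96.1. The 10 genes were protein-coding, with 1436 (*Trim54*) to 10973 (*Nedd4*) exonic bases and a median GC content of 49.9%, beside 50.1% over the tested genes.

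The enzymes that act before the ligases were mostly lower in the KO mice by unadjusted p, with 0 called. Of 15 E1 and E2 enzymes tested, 9 were lower at an unadjusted p under 0.05 and 1, *Cdc34*, was higher. Over all tested genes, 10.9% were lower and 15.3% higher at that p. The median log2 fold change of the 15 was -0.32, or -0.13 after the GC correction, where 0 passed. Their median GC content was 44.6%, and tested genes of 44% to 48% GC had a median log2 fold change of -0.17. *Ube2d2* and *Ube2d3*, E2 enzymes that serve many RING ligases, and *Ube2n*, the E2 enzyme of TRAF6, had log2 fold changes of -0.47, -0.48 and -0.43, with adjusted p of 0.0767 to 0.0950 in limma. Of the 9 core subunits of cullin ligases, 3 were lower (*Cul5*, *Tceb1* and *Skp1a*) and 1 higher (*Tceb2*) at an unadjusted p under 0.05, and 0 after the GC correction. *Cul5* and *Tceb1* (elongin C) belong to the cullin 5 ligase that ASB2 joins. Both were lower in every KO library, as were 16.2% of tested genes, with log2 fold changes of -0.47 (adjusted p = 0.115 in limma) and -0.55 (adjusted p = 0.0879). *Tceb2*, the gene of elongin B in the same complex, was higher in every KO library, as were 18.3% of tested genes. Its log2 fold change was 0.73 (adjusted p = 0.0939 in limma). After the GC correction the values of *Cul5*, *Tceb1* and *Tceb2* were -0.13, -0.21 and 0.30. The GC contents of *Cul5*, *Tceb1* and *Tceb2* were 40.9%, 41.1% and 56.6%.

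Among 20 other ubiquitin ligases of muscle, 4 were higher (*Ubr4*, *Stub1*, *Mul1* and *Trim72*) and 5 lower (*Xiap*, *Wwp1*, *Smurf2*, *Fbxw7* and *Itch*) at an unadjusted p under 0.05, and 0 were called. The shares over all tested genes were 15.3% higher and 10.9% lower, and 5.37% and 5.43% after the GC correction. *Ubr4*, an N-recognin, had a log2 fold change of 0.77 (adjusted p = 0.0750 in limma), and 0.48 after the GC correction, where it was the 1 gene of the list past an unadjusted p of 0.05. *Stub1*, the gene of the chaperone-linked ligase CHIP, had 0.61 (adjusted p = 0.0760) and 0.010, and *Xiap*, a caspase inhibitor, -0.64 (adjusted p = 0.0716) and -0.24. Of 10 deubiquitinating enzymes, 3 were higher (*Uchl1*, *Usp2* and *Usp19*) and 4 lower (*Usp1*, *Cyld*, *Usp14* and *Uchl3*), with 0 called. *Uchl1*, an enzyme abundant in neurons, had 0.698, 0.884 and 0.896 FPKM in the WT replicates and 1.86, 2.36 and 1.73 FPKM in the KO replicates, at a log2 fold change of 1.17 (adjusted p = 0.0667 in limma). *Usp1* and *Usp2* had log2 fold changes of -0.64 (adjusted p = 0.0667 in limma) and 0.70 (adjusted p = 0.0785). *Usp1* and *Uchl1* were still past an unadjusted p of 0.05 after the GC correction, at -0.40 and 0.65.

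Over all tested genes, 15.3% were higher and 10.9% lower at an unadjusted p under 0.05, and 5.37% and 5.43% after the GC correction. Among 26 tested partners, adaptors and substrates of the ligases, 7 were higher and 1, *Tab2*, lower at that p without the correction. The median log2 fold change of these 26 was 0.24, and 0.14 after the GC correction. The 1 called gene was *Ttn*, the giant sarcomere protein to which MuRF1 and MuRF2 bind, which was listed at 0 in all 3 WT libraries and at 188, 151 and 189.8 FPKM in the KO replicates. Since titin is part of every sarcomere, that 0 may be a failed estimate, and no fold is given. *Flnc*, which encodes filamin C of the Z-disc, a filamin, had 22.0, 32.1 and 26.7 FPKM in the WT replicates and 43.0, 67.2 and 59.7 FPKM in the KO replicates, at a log2 fold change of 1.06 (adjusted p = 0.0673 in limma), and 0.51 after the correction. *Des* (desmin, a substrate of muscle ligases) and *Srf* (the factor that binds CArG boxes) had 0.71 (adjusted p = 0.0750 in limma) and 0.64 (adjusted p = 0.0950), and 0.39 and -0.026 after the correction. *Ttn*, *Flnc* and *Des* were the 3 genes of the list past an unadjusted p of 0.05 after it.

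Genes of the pathways known to control the transcription of *Trim63* and *Fbxo32* included 0 called genes. Of 14 tested FOXO factors and insulin signaling genes, 3 were higher at an unadjusted p under 0.05. The background at that p was 15.3% of tested genes higher and 10.9% lower, and 5.37% and 5.43% after the GC correction. *Irs2*, an adaptor of the insulin receptor, had 0.250, 0.591 and 0.528 FPKM in the WT replicates and 1.28, 1.12 and 2.55 FPKM in the KO replicates, at a log2 fold change of 1.63 (adjusted p = 0.0809 in limma), and 1.20 after the GC correction. The kinase genes *Akt1* and *Mtor* had 0.90 (adjusted p = 0.0887 in limma) and 0.52 (adjusted p = 0.0936), and 0.31 and 0.29 after the correction. Past an unadjusted p of 0.05 after it were *Irs2*, *Igf1* and *Igf1r* higher and *Foxo4* lower. Of 21 tested regulators outside that pathway, 6 were higher and 1, *Bmpr1a*, lower at an unadjusted p under 0.05. *Klf15*, a glucocorticoid target that acts on *Trim63* and *Fbxo32*, had 3.79, 5.41 and 5.51 FPKM in the WT replicates and 7.23, 11.2 and 13.4 FPKM in the KO replicates, at a log2 fold change of 1.07 (adjusted p = 0.0758 in limma). It had 0.76 after the correction and was the 1 gene of that list past an unadjusted p of 0.05 there. *Hdac5*, a class IIa deacetylase, and *Tfeb*, a lysosomal regulator, had 0.69 (adjusted p = 0.0708 in limma) and 0.75 (adjusted p = 0.106), and 0.064 and 0.091 after the correction.

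Among 19 other genes known to respond in atrophy, 5 were higher (*Eif4ebp1*, *Mt2*, *Mt1*, *Gabarapl1* and *Map1lc3b*) and 1, *Gadd45a*, lower at an unadjusted p under 0.05, with 0 called. The background was again 15.3% of tested genes higher and 10.9% lower, and 5.37% and 5.43% after the GC correction. *Eif4ebp1*, an inhibitor of translation initiation, had 24.2, 23.99 and 26.2 FPKM in the WT replicates and 35.7, 39.0 and 38.2 FPKM in the KO replicates, at a log2 fold change of 0.60 (adjusted p = 0.0667 in limma), and 0.60 after the GC correction. *Mt2*, a metallothionein, had 1.54 (adjusted p = 0.0983 in limma), with KO replicate 7 far above the others at 13.9 FPKM. *Gadd45a*, a stress gene of denervated muscle, had -0.36 (adjusted p = 0.104 in limma), and -0.85 after the correction. Past an unadjusted p of 0.05 after it were *Eif4ebp1*, *Mt2* and *Ctsl* higher and *Gadd45a* and *Atf4* lower.

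The genes whose profile over the 6 libraries was most like that of a ligase gene were taken from 6021 genes of at least 5 FPKM, by the root mean square difference of centered log2(FPKM + 0.1). Nearest to *Trim54* were *Ece1* (difference 0.11), *Ccdc124* (0.13) and *Tesk1* (0.13), where *Trim54* itself varied by 0.76 about its mean. *Ece1*, which encodes endothelin-converting enzyme, had 9.09, 13.2 and 18.5 FPKM in the WT replicates and 36.3, 33.0 and 27.8 FPKM in the KO replicates, and so shared the order of *Trim54* in all 6 libraries. Nearest to *Trim63* were *Bex1* (0.14), *Med24* (0.15) and *Flcn* (0.16), and nearest to *Fbxo32* were *Bex1* (0.24), *Rasd2* (0.24) and *Lpin1* (0.24), with variation about their means of 0.41 for *Trim63* and 0.44 for *Fbxo32*. *Bex1*, the nearest gene to both, had 5.92, 9.16 and 7.37 FPKM in the WT replicates and 6.91, 7.78 and 12.1 FPKM in the KO replicates, highest in WT replicate 7 and KO replicate 8.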

How the data were processed

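RNA of GAS muscle was sequenced with a stranded mRNA kit in 3 WT and 3 KO mice. The authors used TopHat to map paired reads of 150 bases to GRCm38 and Cufflinks for gene levels, as in the submitters' processing notes, and deposited FPKM per gene and library, without counts. Versions, annotation release and strand setting are not given in the sources used here. Log2(FPKM + 0.1) values were compared by limma (version 3.58.1, R 4.3.3) with a variance trend, for genes averaging 0.5 FPKM or more, and p-values were adjusted over all of them by Benjamini and Hochberg. On this scale the fold changes of low genes are understated. P-values measure the spread between 3 mice a group.

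Depth was estimated from low FPKM of genes with 1 transcript of 1500 to 6000 bases, of which 91.8% to 94.6% lay within 0.15 of a whole fragment, so 1 fragment on 1 kilobase is worth 0.0497 to 0.0725 FPKM, covering counting error only. Coordinates, exons and GC content came from GENCODE vM21 (GRCm38). For the GC correction each library's deviation from the mean was fitted by loess (span 0.3) on GC content and subtracted. The scripts were tested on simulated data. No 2 libraries shared more than 1 value among 14983 genes, so each was counted as a replicate. Alternatives covered the pseudocount, filter, scaling, variance model, array weights, replicate block, GC content and leaving out each library. Leaving out a library together with the GC correction was added after seeing the data.

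Members and gene lists were chosen with earlier results of these data known. Named are all members, called list genes or else up to 3 per list of lowest p with 1 FPKM or more, the 3 nearest profiles of *Trim63*, *Trim54* and *Fbxo32*, and *Kcnab2*. Others are named where a count is 5 or fewer or a marker bears on a result, after their values were seen. The result of 1 list gene is not reported here. Figures used matplotlib 3.10.9 in Python 3.11.15.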

Additional observations from a re-analysis of the deposited data

How the results depend on the processing

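With 3 libraries a group, exact permutation tests cannot give a p under 0.1, and low genes rest on few fragments. Genes called in all numbered 40 (31 higher, 9 lower) and moved to 11 (7 and 4) with a pseudocount of 1 FPKM, 20 (9 and 11) with no filter, 19 (11 and 8) with upper-quartile scaling, 19 (12 and 7) without the variance trend, 3147 (1863 and 1284) with array weights, 1 (1 and 0) without genes at 0 in any library and 14 (6 and 8) with the GC correction, and to 11 to 38 with each library left out in turn. Median centring gave 29 (20 and 9) and a mean of at least 2 FPKM gave 55 (45 and 10). Members called stayed at 0 except for 1, *Trim54*, with array weights and without WT replicate 8, a range of 0 to 1 over the libraries left out. The medians of the members' log2 fold changes lay between 0.031 and 0.15 over the other settings and between -0.076 and 0.23 with a library left out.

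The log2 difference of the *Trim54* to *Trim63* ratio was 0.56 with the GC correction and 0.86 to 1.39 with a library left out, that of *Trim54* to *Trim55* 0.52 and 1.11 to 1.37, and that of *Fbxo32* to *Trim63* -0.11 and -0.44 to -0.25. Of the members' log2 fold changes, *Trim55* turned to -0.0060 with array weights, and with the GC correction *Fbxo32* turned to 0.053, *Fbxo30* to 0.14, *Fbxo21* to -0.043 and *Nedd4* to 0.028. With a library left out, values ran from -0.029 to 0.49 for *Trim63* (negative without WT replicate 1 or KO replicate 8), -0.12 to 0.29 for *Trim55* (negative without WT replicate 1), -0.40 to 0.18 for *Fbxo32* (positive without WT replicate 7 or KO replicate 1), 1.04 to 1.66 for *Trim54*, -0.35 to -0.13 for *Fbxo30*, 0.033 to 0.23 for *Fbxo40*, 0.13 to 0.23 for *Fbxo21*, -0.50 to -0.29 for *Traf6*, -0.27 to -0.12 for *Nedd4* and 0.038 to 0.91 for *Asb2*. With the GC correction and a library left out, chosen after seeing the data, they ran from -0.083 to 0.37 for *Trim63*, 0.50 to 0.96 for *Trim54*, -0.055 to 0.37 for *Trim55*, -0.22 to 0.34 for *Fbxo32*, 0.0084 to 0.25 for *Fbxo30*, -0.11 to -0.0023 for *Fbxo21*, -0.039 to 0.094 for *Nedd4* and -0.44 to 0.28 for *Asb2*. The other members kept their sign under these alternatives. The cause was not tested.

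The replicate numbers have no stated meaning, and same-numbered libraries did not deviate together (correlations -0.025, -0.080 and 0.034), so they were not paired. With the replicate block, 13 genes were called (6 higher, 7 lower), 0 of them members, and *Trim54* had an adjusted p of 0.120 in limma. *Asb2* then had a standard error of 0.23 and an unadjusted p of 0.0459 in limma, with an adjusted p of 0.214.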
